A study of Homo sapiens with 9 samples.

Results

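Cadherins are the calcium-dependent adhesion molecules that hold neighbouring cells together, and 10 of them were followed here across 9 human cell lines of oesophageal adenocarcinoma, a gland-forming cancer of the lower oesophagus. The 10 genes, CDH1, CDH2, CDH3, CDH4, CDH5, CDH6, CDH11, CDH13, CDH16 and CDH17, were taken by name from the table of raw gene counts, which names 52158 genes. Total RNA of the lines ESO-26, ESO-51, FLO-1, JH_EsoAd1, OACP4_C, OAC_5.1_C, OE19, OE33 and SK-GT-4 was sequenced. All 9 were cultured untreated, and the labels give every line the same source, adenocarcinoma of the gastric cardia. Each line has 1 column of counts, which leaves differences between lines without a replicate check, no test between lines was made, and the intervals given below cover counting error only. The design text names 3 technical replicates per line, and the sources used here do not give the way they were combined.

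In a classical cadherin, repeats outside the cell bind the same cadherin on the next cell, and a tail inside the cell binds beta-catenin or plakoglobin, which recruit alpha-catenin and through it the actin cytoskeleton. E-cadherin (CDH1) is the main cadherin of columnar epithelium, its loss is a known event in tumours of the upper gut, and N-cadherin (CDH2) is the form usually described in cells with mesenchymal features. The listed genes are not all classical. CDH1, CDH2, CDH3 (P-cadherin) and CDH4 (R-cadherin) are type I and CDH5 (VE-cadherin), CDH6 (K-cadherin) and CDH11 (OB-cadherin) are type II classical cadherins, 7 genes in all. CDH13 (T-cadherin) is held in the membrane by a lipid anchor and has no tail in the cell, while CDH16 (kidney-specific cadherin) and CDH17 (liver-intestine cadherin) have a short tail that does not bind catenins.

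The end of the tail shows this division in the coding sequence. The stretches below are 45 coding bases from GENCODE release 29 (GRCh38), printed from 5′ to 3′. They lie close to the stop codon, in the part of the tail that binds beta-catenin. They are given for the 5 classical cadherins that reached at least 50 CPM in a library. In CDH1 capitals mark the 33 bases that CDH2, CDH3 and CDH4 share with it, and in the others capitals mark bases identical to CDH1.
CDH1: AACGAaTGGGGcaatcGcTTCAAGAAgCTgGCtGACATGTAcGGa
CDH3: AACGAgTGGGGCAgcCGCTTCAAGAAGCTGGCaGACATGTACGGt
CDH4: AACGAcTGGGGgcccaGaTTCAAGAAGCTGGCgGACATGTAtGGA
CDH2: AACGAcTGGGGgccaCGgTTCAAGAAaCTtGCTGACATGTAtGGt
CDH6: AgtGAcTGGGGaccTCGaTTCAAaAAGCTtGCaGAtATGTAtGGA
CDH3 matched CDH1 at 40 bases (88.9%), CDH4 at 36 (80.0%), CDH2 at 35 (77.8%) and CDH6 at 33 (73.3%). The best matching window in the last 300 coding bases held 33 identical bases in CDH5 and 29 in CDH11, against 24 in CDH16, 21 in CDH13 and 19 in CDH17. Over whole coding sequences the longest run of bases that any 2 of the 10 genes share was 19, with a median of 14 over the 45 pairs of genes.

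Levels are CPM, the count of a gene scaled to a common library total, after TMM correction, which compares a gene between libraries. Levels of different genes are compared only as CPM per kilobase of gene length. The libraries held 16801179 (ESO-26) to 69881539 (FLO-1) counts, so that 3 counts correspond to 0.173 CPM in ESO-26 and 0.0400 CPM in FLO-1. Mitochondrial genes took 24.7% of counts in JH_EsoAd1 and 1.48% to 7.04% elsewhere. Scaling by library size alone would move all genes by -0.27 in JH_EsoAd1 and by up to 0.14 (ESO-51) on the log2 scale. OE19 and OE33 are widely used as lines with an amplified ERBB2 gene, yet ERBB2 was at 185 CPM (rank 6) in the library labelled OE19 and at 149 CPM (rank 8) in the library labelled OE33, against 18325 CPM in SK-GT-4. Each name here is therefore the label that a library carries. The libraries ESO-26 and OE33 also stood apart in epithelial markers. Of 6 (EPCAM and the keratins KRT7, KRT8, KRT18, KRT19 and KRT20), 5 were over 4-fold below the median of the other libraries in ESO-26 and 3 in OE33. Of all genes that reached 1 CPM in a library, 6.3% and 4.17% were that low there. EPCAM was at 5.13 CPM (ESO-26) and 0.189 CPM (OE33) against 132.9 CPM or more elsewhere.

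Most cadherins were nearly silent in most libraries. Of the 90 pairs of a gene and a library, 26 reached 5 CPM, 4 lay between 1 and 5 CPM, 25 had a count of 0 and 12 had 1 to 3 counts. A gene was called higher or lower in a library where log2(CPM + 1) differed by at least 2 (4-fold) from the median of the other 8. The 9 cadherins that reached 1 CPM in some library gave 12 higher and 5 lower calls in 81 pairs, while 4.1% of pairs were higher and 2.79% lower over all 19719 genes that reached 1 CPM. The higher calls fell on 7 of these 9 genes and the lower calls on 2, and over all genes 23% had a higher and 13.8% a lower call. On the log2(CPM + 1) scale the range from the lowest to the highest library had a median of 6.73 over the 9 cadherins and of 1.95 over all genes, of which 10% exceeded 4.89. The range of CDH17 lay at percentile 99.7 of all genes, CDH1 at 99.5, CDH3 at 99.3 and CDH16 at 18.9. In OACP4_C no cadherin was called, where 3.16% of all genes were higher and 1.66% lower. These cadherins were listed with earlier results in view, so the counts describe them and are not evidence that cadherins vary more than other genes.

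**Figure D1:**
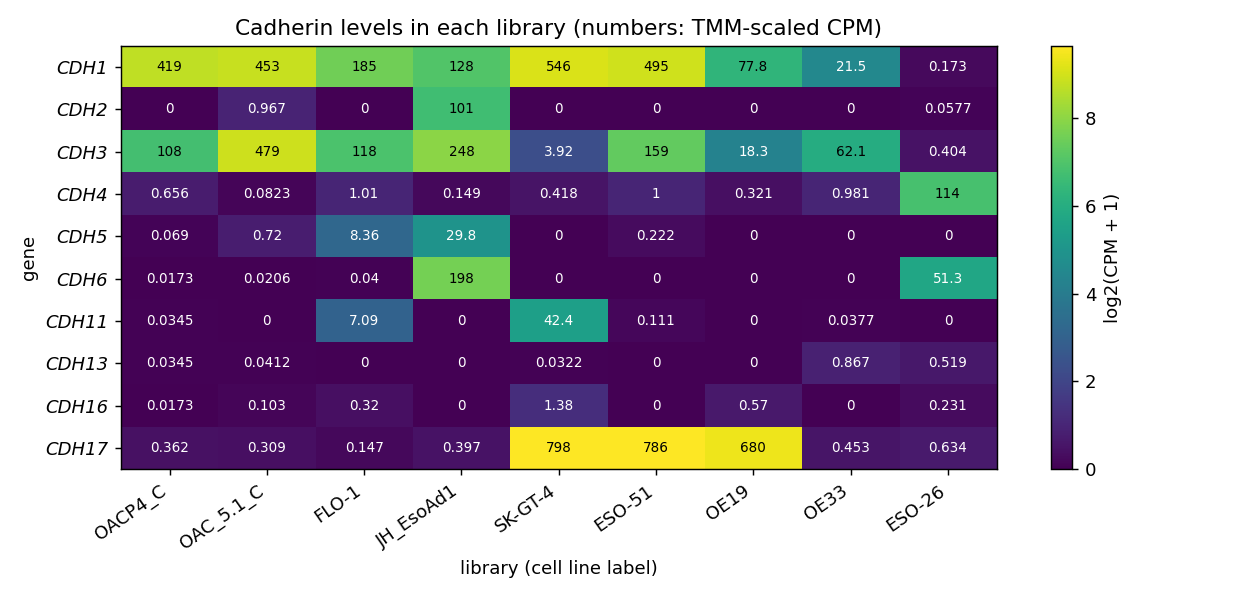
Heat map of the 10 cadherins (rows) in the 9 libraries (columns), with the colour giving log2(CPM + 1) and the printed numbers the TMM-scaled CPM. CDH1 and CDH3 are present in most libraries, CDH17 in 3, and CDH2, CDH4, CDH5, CDH6 and CDH11 in 1 or 2 each, while CDH1 and CDH3 are near 0 in ESO-26.

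CDH1 was present in 8 of the 9 libraries. It stood at 546 CPM in SK-GT-4, at 495 CPM in ESO-51, 453 CPM in OAC_5.1_C, 419 CPM in OACP4_C, 185 CPM in FLO-1, 128 CPM in JH_EsoAd1, 77.8 CPM in OE19, 21.5 CPM in OE33 and only 3 counts (0.173 CPM, 95% interval 0.0357 to 0.506) in ESO-26. All 8 neighbouring steps in this order were wider than the counting intervals. With the deposited FPKM OACP4_C (22.2) stood above OAC_5.1_C (20.6). The upper 4 libraries lay within 1.31-fold (1.28 to 1.33) of each other, and OACP4_C was 2.26-fold (2.22 to 2.31) above FLO-1, the next. The lower end was far more spread. CDH1 was 3157-fold (1080.1 to 15310) higher in SK-GT-4 than in ESO-26, 25.4-fold (23.3 to 27.6) higher than in OE33 and 7.02-fold (6.71 to 7.34) higher than in OE19. It was called lower in ESO-26 (log2 difference of -7.89 from the median of the others) and in OE33 (-3.63), where 6.3% and 4.17% of all genes were lower. In bulk samples fewer cells of a type and less RNA per cell cannot be told apart.

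ESO-26 also lay at least 4-fold below the next lowest library, with 124-fold (42.4 to 605) more CDH1 in OE33, a gap that 2.06% of all genes showed in some library. With the deposited FPKM, whose low values sit closer to the added 1 and which in JH_EsoAd1 divide by a total with 77.3% of counts outside the table, this gap was no longer called, while both lower calls held (-3.73 and -2.79). The gap rule could not call ESO-26 by FPKM, since OE33 held 0.939 FPKM, below the minimum of 5. On that scale CDH1 was also called lower in JH_EsoAd1 (-2.25), where it was 1.81 FPKM against 4.08 FPKM in OE19. It was called higher in SK-GT-4 (2.04). OE19 fell 1.82 below the median of the others, short of a call, and passed it (-2.41) without FLO-1, without ESO-26, without OE33 or without JH_EsoAd1. SK-GT-4 lay 1.82 above and was called (2.09) without OACP4_C, FLO-1, ESO-51 or OAC_5.1_C. The part of other epithelial genes in the low CDH1 of ESO-26 and OE33 was not tested.

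CDH3, a placental and basal-cell cadherin often found in gastrointestinal tumours, followed CDH1 only in part. It was 479 CPM in OAC_5.1_C, 248 CPM in JH_EsoAd1, 159 CPM in ESO-51, 118 CPM in FLO-1, 108 CPM in OACP4_C, 62.1 CPM in OE33, 18.3 CPM in OE19, 3.92 CPM in SK-GT-4 and only 7 counts (0.404 CPM) in ESO-26. Here too no neighbours in the order had overlapping intervals, although with the deposited FPKM OACP4_C (6.72) stood above FLO-1 (5.50). OAC_5.1_C was 1.93-fold (1.87 to 1.99) above JH_EsoAd1, or 6.20-fold with the deposited FPKM, where JH_EsoAd1 ranked 5 and not 2. OAC_5.1_C was called higher (2.53, with 4.52% of genes higher there). SK-GT-4 (-4.53), ESO-26 (-6.34) and OE19 (-2.56) were called lower, where 3.14%, 6.3% and 3.66% of genes were. The call in OE19 did not hold with the deposited FPKM (-1.44).

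The library with the most CDH1 thus had nearly the least CDH3, as the plot of both genes shows. SK-GT-4 held 40.4-fold (33.8 to 48.7) less CDH3 than ESO-51, whose CDH1 differed from its own by 1.10-fold. OE33 went the other way only in part. It held CDH1 at 21.5 CPM and CDH3 at 62.1 CPM, the latter -0.854 from the median of the others, without a call. OE33 exceeded ESO-26 in both genes, by 154-fold (74.5 to 383) in CDH3 and 124-fold (42.4 to 605) in CDH1. Per length, CDH1 exceeded CDH3 by 3.31-fold (3.22 to 3.41) in OACP4_C and by 1.33-fold (1.30 to 1.37) in FLO-1. CDH3 exceeded CDH1 by 3.38-fold (3.07 to 3.72) in OE33 and by 1.24-fold (1.22 to 1.26) in OAC_5.1_C, the latter falling to 1.05-fold with transcript lengths. Without SK-GT-4, ESO-26 was called by the gap in CDH3 as well, at -3.78 from the next lowest library.

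**Figure D2:**
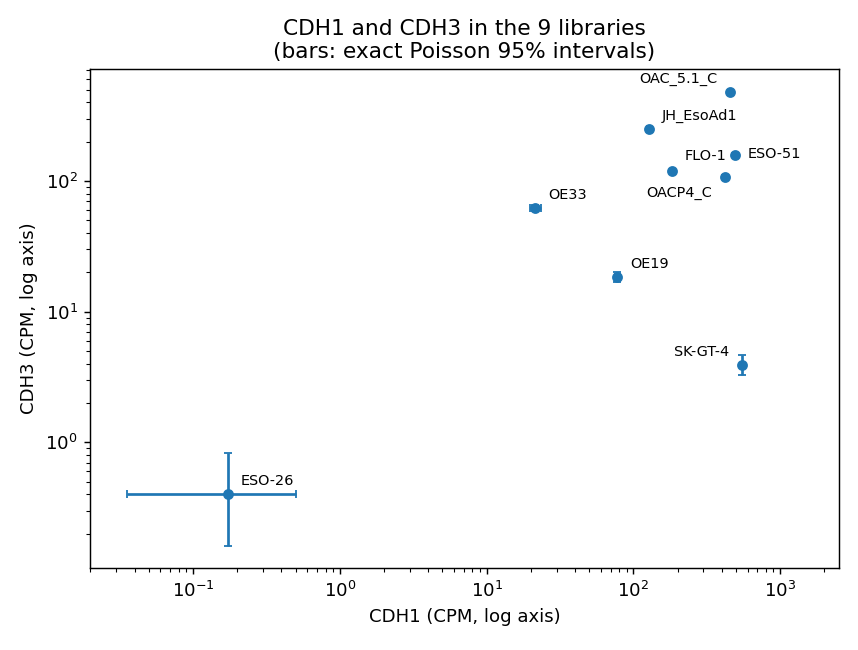
CDH1 (x axis) against CDH3 (y axis) in CPM on log axes, 1 point per library, with bars for exact Poisson 95% intervals. ESO-26 lies at the lower left with 0.173 and 0.404 CPM, SK-GT-4 holds 546 CPM of CDH1 with 3.92 CPM of CDH3, and OE33 holds more CDH3 than the libraries OE19 and SK-GT-4 with less CDH1 than either.

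CDH2 was a gene of 1 library. JH_EsoAd1 held 2047 counts (101 CPM, 97.1 to 106), OAC_5.1_C 47 counts (0.967 CPM), ESO-26 a count of 1, and the other 6 libraries none. JH_EsoAd1 was 105-fold (78.6 to 143) above OAC_5.1_C, or 32.7-fold with the deposited FPKM, and at least 897-fold above the 6 libraries at 0, taking 3 counts per library as the floor. It was called higher (6.68, with 4.11% of genes higher there) and also by the gap, 5.70 above the next library, as 5.51% of all genes were in some library. With FPKM the difference from the median was 1.94 and neither call held. CDH2 was 2.84 FPKM in JH_EsoAd1, too low for either rule to call with 1 added. That loss is therefore no check of the calls. ESO-26 and OE33, the libraries with the least CDH1, had 1 and 0 counts of CDH2. JH_EsoAd1 held CDH1 at 128 CPM, a difference of -1.12 from the median of the others. That level was not called lower at 4-fold, but it was with FPKM and at a 2-fold threshold. The same library held the squamous markers TP63 at 292 CPM and KRT4 at 523 CPM, and 4 of the 6 squamous markers were called higher there. Their summed level was 1078 CPM in JH_EsoAd1 and 3.09 to 35.6 CPM elsewhere. Of 6 fibroblast markers 2 were called higher in JH_EsoAd1, COL1A1 (46.5 CPM) and COL1A2 (40.6 CPM), while DCN had 0 counts, with sums of 88.5 CPM there and 1.92 to 330 CPM over all libraries. The part of these genes and of the high mitochondrial share in the CDH2 level was not tested.

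CDH4, best known from retina and brain, marked ESO-26 in the same way. It reached 1969 counts (114 CPM) in ESO-26, then 1.013 CPM in FLO-1, 1.0004 CPM in ESO-51, 0.981 CPM in OE33, 0.656 CPM in OACP4_C, 0.418 CPM in SK-GT-4, 0.321 CPM in OE19, 0.149 CPM in JH_EsoAd1 and 0.0823 CPM in OAC_5.1_C. From FLO-1 downward all 7 neighbouring pairs had overlapping intervals, although the ends of that order did not overlap (FLO-1 0.798 to 1.27 CPM, OAC_5.1_C 0.0224 to 0.211 CPM). ESO-26 exceeded FLO-1 by 112-fold (89.1 to 143), and both the call against the median (6.22, with 3.92% of genes higher in ESO-26) and the gap held with the deposited FPKM (3.59 against the median). An antisense gene that overlaps CDH4 was at 0.980 CPM in ESO-26. Of 6 neural markers, NCAM1 (6.40 CPM) was among 2 called higher in ESO-26. Their summed level was 17.7 CPM there, within the 1.35 to 125.5 CPM of all libraries, with 2 markers at a count of 0, and their part in the CDH4 level was not tested.

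CDH6, a cadherin of the developing kidney, was shared by the libraries that CDH2 and CDH4 marked. It was 198 CPM (3994 counts) in JH_EsoAd1 and 51.3 CPM (890 counts) in ESO-26, a 3.86-fold (3.59 to 4.15) difference. That difference depends on the scale, since the deposited FPKM was 2.63 in JH_EsoAd1 and 2.78 in ESO-26 (ratio 0.949). FLO-1 had 3 counts, OACP4_C and OAC_5.1_C a count of 1 each, and OE19, SK-GT-4, OE33 and ESO-51 none. ESO-26 exceeded FLO-1 by 1283-fold (438 to 6235). Against the 4 libraries at 0 the level was at least 1749.8-fold higher in JH_EsoAd1 and at least 454-fold higher in ESO-26. Both were called higher (7.62 and 5.70), and neither call held with the deposited FPKM (1.86 and 1.92). With 1 added, 2.63 and 2.78 FPKM are too low for a call, so this loss is no check of the calls. By FPKM ESO-26 still exceeded FLO-1 by 1868-fold. Without ESO-26, JH_EsoAd1 stood 7.58 above the next library, and without JH_EsoAd1, ESO-26 stood 5.65 above it.

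CDH5, the cadherin of blood vessel lining, was found at 29.8 CPM (602 counts) in JH_EsoAd1 and 8.36 CPM (627 counts) in FLO-1. OAC_5.1_C followed at 0.720 CPM (35 counts), ESO-51 at 0.222 CPM and OACP4_C at 0.0690 CPM, and OE19, SK-GT-4, ESO-26 and OE33 had 0 counts. JH_EsoAd1 was 3.57-fold (3.19 to 3.998) above FLO-1, or 1.28-fold with the deposited FPKM, and FLO-1 was 11.6-fold (8.25 to 16.8) above OAC_5.1_C. Both were called higher, by 4.90 in JH_EsoAd1 and 3.18 in FLO-1 (4.97%). Neither call held with the deposited FPKM (0.655 and 0.535), and that in FLO-1 did not hold with a pseudocount of 5 (1.41). At 0.579 FPKM (JH_EsoAd1) and 0.453 FPKM (FLO-1), no call was possible with 1 added. Of 8 endothelial markers listed, PECAM1 had no matching gene name in the counts. Of the other 7, ESAM alone was called higher in JH_EsoAd1 (26.0 of a summed 28.3 CPM). None was called higher in FLO-1 (summed 3.77 CPM), where KDR was 1.45 CPM and ERG 1.53 CPM. The sums ran from 0.807 CPM (ESO-26) to that of JH_EsoAd1, where ERG was at 0 counts and KDR at 0.0991 CPM.

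CDH11, a cadherin of bone and connective tissue cells, was 42.4 CPM (1318 counts) in SK-GT-4 and 7.09 CPM (532 counts) in FLO-1. ESO-51 had 0.111 CPM, OE33 0.0377 CPM, OACP4_C 0.0345 CPM and the remaining 4 libraries 0 counts. SK-GT-4 was 5.97-fold (5.398 to 6.62) above FLO-1, and FLO-1 63.8-fold (27.2 to 197) above ESO-51. Against the libraries at 0 the levels were at least 245-fold and 41.0-fold higher. SK-GT-4 (5.41, with 4.54% of genes higher there) and FLO-1 (2.99) were called higher, and SK-GT-4 also by the gap (2.42). With the deposited FPKM these differences were 1.24 and 0.252 and no call held. At 1.36 FPKM (SK-GT-4) and 0.192 FPKM (FLO-1), no call was possible with 1 added. With a pseudocount of 5 that of FLO-1 (1.27) and the gap of SK-GT-4 were lost. No fibroblast marker was called higher in SK-GT-4 or FLO-1. COL1A1 was 26.1 and 10.3 CPM there, COL3A1 had 0 counts in SK-GT-4 and was 2.92 CPM in FLO-1, and LUM had 0 counts in both. ESO-26, with the highest fibroblast sum (330 CPM, of which COL3A1 gave 311), had 0 counts of CDH11.

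CDH17, a marker of intestinal epithelium and of intestinal metaplasia, split the libraries cleanly. SK-GT-4 held 798 CPM, ESO-51 786 CPM and OE19 680.5 CPM. In the other 6 it lay between 0.147 CPM (FLO-1, 11 counts) and 0.634 CPM (ESO-26, 11 counts), a range in which all 5 neighbouring pairs had overlapping intervals. The ends of that range did not overlap (FLO-1 0.0732 to 0.262 CPM, ESO-26 0.317 to 1.14 CPM). OE19 exceeded ESO-26, the highest of the 6, by 1073-fold (599 to 2149). SK-GT-4 and ESO-51 could not be separated at this depth (ratio 1.02, 0.999 to 1.03, and 0.970 with the deposited FPKM), and ESO-51 exceeded OE19 by 1.15-fold (1.13 to 1.18). All 3 were called higher (9.13, 9.11 and 8.90), with 3.63% of genes higher in ESO-51 and 3.55% in OE19, and each call held with the deposited FPKM (6.52 to 6.65).

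The intestinal markers moved with CDH17. Of 6 (CDX1, CDX2, HNF4A, VIL1, GPA33 and LGALS4), 6 were called higher in ESO-51, 4 in SK-GT-4 and 4 in OE19. Of all genes 3.63%, 4.54% and 3.55% were higher there, and no marker was called higher in the other 6 libraries. The summed level of the markers was 1902 CPM (OE19), 1811 CPM (SK-GT-4) and 849.8 CPM (ESO-51), against 4.04 to 21.0 CPM elsewhere. The members of the list did not all follow. HNF4A (124, 138 and 167 CPM in OE19, SK-GT-4 and ESO-51) and GPA33 (43.9, 57.4 and 43.2 CPM) were high in all 3. CDX2, the intestinal homeobox factor, was 78.4 CPM (OE19) and 99.9 CPM (ESO-51) but 6.85 CPM in SK-GT-4, where CDH17 was highest. Villin (VIL1) was 341 and 283 CPM in SK-GT-4 and ESO-51 but 0.463 CPM in OE19. CDX1 was 84.9 CPM in ESO-51 but 1.10 CPM in OE19 and 0 counts in SK-GT-4.

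CDH13 and CDH16 were close to absent. CDH13 reached 0.867 CPM (OE33, 23 counts) and 0.519 CPM (ESO-26, 9 counts), whose intervals overlap (ratio 1.67, 0.745 to 4.10), had at most 2 counts in OAC_5.1_C, OACP4_C and SK-GT-4, and 0 counts in the other 4. It never reached 1 CPM and entered no call. CDH16 was 1.38 CPM (43 counts) in SK-GT-4 and 0.570 CPM (16 counts) in OE19, a 2.42-fold (1.34 to 4.61) difference. It was at most 0.320 CPM elsewhere, with 0 counts in OE33, ESO-51 and JH_EsoAd1, and was called in no library. Of the kidney and thyroid markers, PAX8 was present throughout (1.31 to 25.7 CPM) and was called lower in OACP4_C, and UMOD had 0 counts in every library. LRP2 was called higher in FLO-1 (33.8 CPM) and in OE33 (11.2 CPM), and OE33 had 0 counts of CDH16.

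Per length, 4 different cadherins led the 9 libraries. The share of each gene in the summed CPM per kilobase of the 10 cadherins does not depend on library scaling. CDH17 led in OE19 (94.8%), SK-GT-4 (78.7%) and ESO-51 (75.6%), with CDH1 next at 4.03%, 20.0% and 17.7%. CDH1 led in OACP4_C (76.5%, with CDH3 at 23.1%) and FLO-1 (54.0%, with CDH3 at 40.5%). CDH3 led in OE33 (74.1%, CDH1 21.9%), OAC_5.1_C (55.1%, CDH1 44.5%) and JH_EsoAd1 (34.4%). CDH4 led in ESO-26 (79.7%), where CDH6 held 19.0% and CDH1 0.0683%.

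JH_EsoAd1 was the mixed case, with CDH3 at 34.4%, CDH2 at 23.6%, CDH6 at 21.9%, CDH1 at 15.1% and CDH5 at 4.82%. CDH3 exceeded CDH2 there by 1.45-fold (1.38 to 1.53). The deposited gene length of CDH17 (4935 bases) is closer to its longest coding transcript (3693 bases) than is that of CDH1 (13272 against 4878 bases). With transcript lengths, an alternative chosen after seeing the data, the leader stayed the same in all 9 libraries. The excess of CDH17 over CDH1 fell from 23.5 to 11.5 in OE19, from 3.93 to 1.93 in SK-GT-4 and from 4.27 to 2.10 in ESO-51. In JH_EsoAd1 CDH1 (20.1%) then stood above CDH2 (17.9%).

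**Figure D3:**
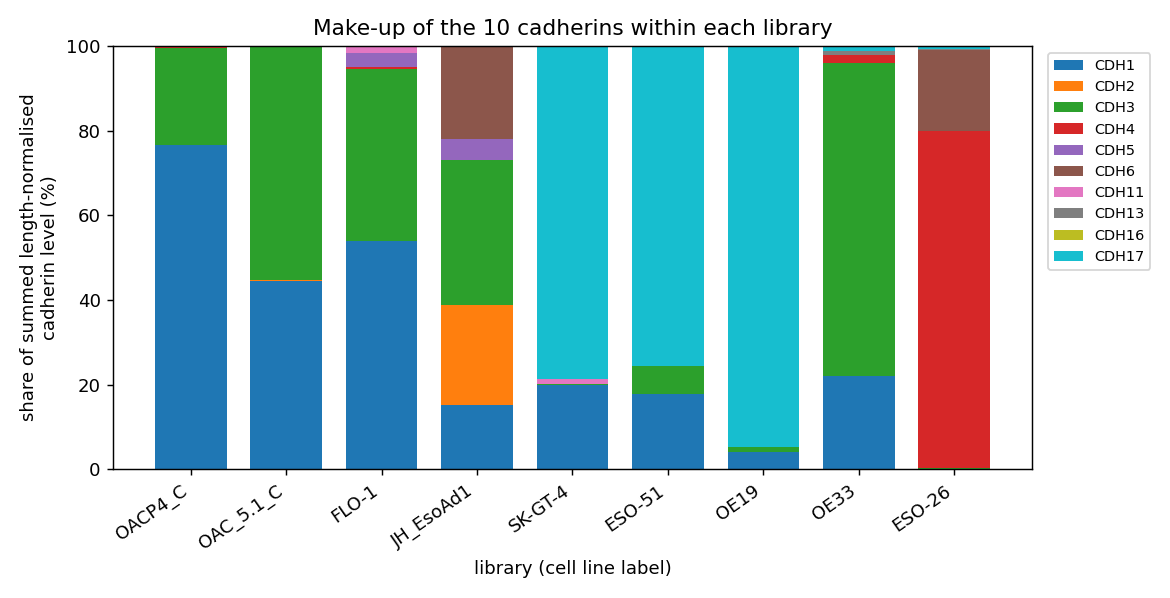
Stacked bars of the share (%) of each cadherin in the summed CPM per kilobase of the 10 cadherins, 1 bar per library. CDH17 fills most of the bars of SK-GT-4, ESO-51 and OE19, CDH4 and CDH6 fill that of ESO-26, and JH_EsoAd1 is divided among CDH1, CDH2, CDH3, CDH5 and CDH6.

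Counting only the 7 classical cadherins, their summed level was lowest in OE33 (7.24 CPM per kilobase) and OE19 (7.52) and highest in JH_EsoAd1 (63.7) and OAC_5.1_C (76.6). Unlike the shares, these sums depend on the scaling between libraries. By deposited FPKM JH_EsoAd1 lost its high place, with CDH3 at 4.13, CDH2 at 2.84, CDH6 at 2.63 and CDH1 at 1.81. ESO-51, with a sum of 51.5 CPM per kilobase, held CDH1 alone at 24.5 FPKM. ESO-26, with almost no CDH1, held 18.9 CPM per kilobase, more than OE33 and OE19. CDH1 and CDH3 together made up 94.7% to 99.8% of the classical cadherins in 7 libraries. They made up 49.5% in JH_EsoAd1 and 0.257% in ESO-26. CDH1 led in 5 libraries once CDH13, CDH16 and CDH17 were left out.

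Of the 10 genes 6 lie on chromosome 16, in the order CDH11, CDH5, CDH16, CDH3, CDH1 and CDH13 in RefSeq (GRCh38.p14). CDH3 and CDH1 are adjacent, with 0 protein-coding genes between them, as are CDH11 and CDH5. The other pairs have 14, 60 and 105 protein-coding genes between them. Neighbours shared their pattern only in part. CDH1 and CDH3 were both lowest in ESO-26 (0.173 and 0.404 CPM), while SK-GT-4 held 546 CPM of CDH1 and 3.92 CPM of CDH3. CDH11 was 42.4 CPM with 0 counts of CDH5 in SK-GT-4. In JH_EsoAd1 CDH5 was 29.8 CPM with 0 counts of CDH11, and FLO-1 held both (8.36 and 7.09 CPM). ESO-26 had at most 9 counts of any of these 6 cadherins, while its CDH4 (chromosome 20) and CDH6 (chromosome 5) were high. CDH2 lies on chromosome 18 and CDH17 on chromosome 8.

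The catenins, which link the tail of a classical cadherin to actin, were present where cadherins were low as well as where they were high. Their level was not even, since JUP, CTNND1, ARVCF, VCL and AFDN were all lowest in ESO-26. The median log2 difference of the list was -1.41 in ESO-26 and -0.0966 in OE33, against -0.0245 and -0.0147 over all genes. Of 11 genes 9 reached 1 CPM, with 4 higher and 4 lower calls in 81 pairs, not far from the 4.1% higher and 2.79% lower of pairs over all genes. Beta-catenin (CTNNB1) lay between 246 CPM (OACP4_C) and 860.04 CPM (OE19), a 3.50-fold (3.42 to 3.57) range without a call, and was 392 CPM (ESO-26) and 400.4 CPM (OE33) in the libraries lowest in CDH1. Catenin delta-1 (CTNND1), which binds the tail near the membrane, ranged from 133 CPM (ESO-26) to 644 CPM (OACP4_C). Plakoglobin (JUP), which can take the place of beta-catenin and also serves desmosomes, gave 5 of the 8 calls. Its level was 8234 CPM (SK-GT-4), 4168 CPM (OACP4_C) and 3136 CPM (ESO-51) in the 3 libraries called higher, between 394 and 600.2 CPM in FLO-1, OE19, JH_EsoAd1 and OAC_5.1_C, and 48.8 CPM (OE33) and 35.8 CPM (ESO-26) in those called lower. SK-GT-4 exceeded ESO-26 by 230.3-fold (213 to 249.6), and the 2 libraries with the least JUP were those with the least CDH1.

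Alpha-catenin (CTNNA1), without which a classical cadherin is not coupled to actin, was nearly missing in a library with ample CDH1. It was 1.07 CPM (80 counts) in FLO-1, 20.1 CPM in ESO-51, and between 269.9 CPM (ESO-26) and 707 CPM (OE19) in the other 7. ESO-26 held 253-fold (203 to 320) more CTNNA1 than FLO-1 and 13.4-fold (12.5 to 14.4) more than ESO-51. FLO-1 and ESO-51 were the libraries called lower (0.999% and 2.67% of all genes were), and both had CDH1 and CDH3 over 100 CPM. The other alpha-catenins were scarce, CTNNA2 at most 0.149 CPM anywhere and CTNNA3 at 0.0400 CPM in FLO-1 and 0.734 CPM in ESO-51, with its highest level, 3.76 CPM, in SK-GT-4. Vinculin (VCL) was 427 CPM in FLO-1 and 168 CPM in ESO-51, within its range of 108 to 885 CPM. The other tail-binding or linker genes gave no call, with ARVCF at 3.63 to 39.0 CPM, PKP4 at 62.2 to 213.5 CPM and AFDN at 77.2 to 525 CPM, and CTNND2 was at most 0.280 CPM.

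**Figure D4:**
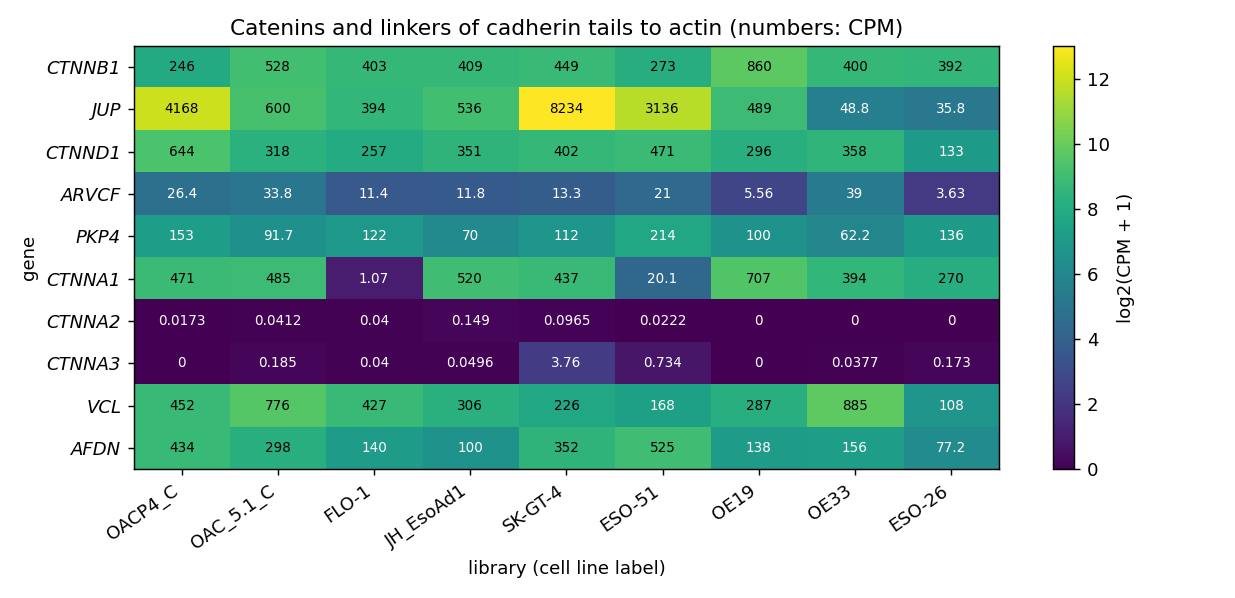
Heat map of 10 catenins and actin linkers (rows) in the 9 libraries (columns), with the colour giving log2(CPM + 1) and the printed numbers the CPM. CTNNB1 is present in every library, JUP drops to 48.8 CPM (OE33) and 35.8 CPM (ESO-26), and CTNNA1 drops to 1.07 CPM in FLO-1 and 20.1 CPM in ESO-51.

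Of 6 textbook repressors of CDH1, ZEB1 was the one called higher in all 3 libraries with the least CDH1 by CPM. Of these OE19 was not itself called lower in CDH1, and by deposited FPKM JH_EsoAd1, where ZEB1 was not called, took its place. In OE33, ESO-26 and OE19 ZEB1 was 85.7, 61.2 and 55.0 CPM (differences of 4.46, 3.98 and 3.83, with 4.5% of all genes higher in OE33). It was 9.86 CPM in JH_EsoAd1, 5.68 CPM in OACP4_C, 1.33 CPM in ESO-51 and below 0.5 CPM in OAC_5.1_C, FLO-1 and SK-GT-4. ZEB2 was called higher in OE33 and ESO-26 (17.5 and 8.25 CPM) and was at most 1.39 CPM elsewhere. TWIST1 was 35.3 CPM in ESO-26 and at most a count of 1 elsewhere, and TWIST2 was 7.99 CPM in FLO-1. The snail factors peaked in other libraries, SNAI1 in OE19 (13.7 CPM) and SNAI2 in JH_EsoAd1 (24.0 CPM), where CDH1 was 128 CPM and CDH2 highest. SNAI2 had 0 counts and was called lower (-2.20) in OE19 and OE33, and likewise in SK-GT-4 and ESO-51, where CDH1 was highest. In ESO-26 it was 3.40 CPM without a call. The list gave 9 higher and 7 lower calls in 54 pairs, with 4.1% and 2.79% of pairs over all genes beside them. The libraries OE19 and OE33 are those whose ERBB2 level goes against their labels.

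Regulators of the epithelial state were low in the same libraries, with 9 higher and 16 lower calls in 54 pairs. Over all genes 4.1% of pairs were higher and 2.79% lower. Of 6 genes, 6 were called lower in OE33, 5 in ESO-26, 3 in OE19 and 2 in JH_EsoAd1. Of all genes 4.17%, 6.3%, 3.66% and 1.13% were lower in these libraries. GRHL2, a grainyhead factor known to act on CDH1, was 0.0713 CPM (OE19), 0.0754 CPM (OE33) and 3.69 CPM (ESO-26), and was also low in JH_EsoAd1 (0.595 CPM), against 65.9 to 218 CPM in the remaining 5. The epithelial splicing factor ESRP1 was at most 0.519 CPM in OE19, OE33 and ESO-26 and at least 104 CPM elsewhere. OVOL1 had 0 counts in these 3 and 2 counts in JH_EsoAd1, where it was also called lower (-3.46). ESRP2 was called lower in OE33 alone (6.94 CPM) and OVOL2 in OE33 (0 counts) and ESO-26 (0.115 CPM). The level of ELF3 was 0.792 CPM (OE33) and 0.346 CPM (ESO-26) but 178 CPM in OE19, inside the 126 to 260.2 CPM of the other 6. OE19, with CDH1 at 77.8 CPM and CDH17 at 680.5 CPM, thus had high ZEB1 and low GRHL2, ESRP1 and OVOL1, as did OE33 and ESO-26, but not their low ELF3.

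**Figure D5:**
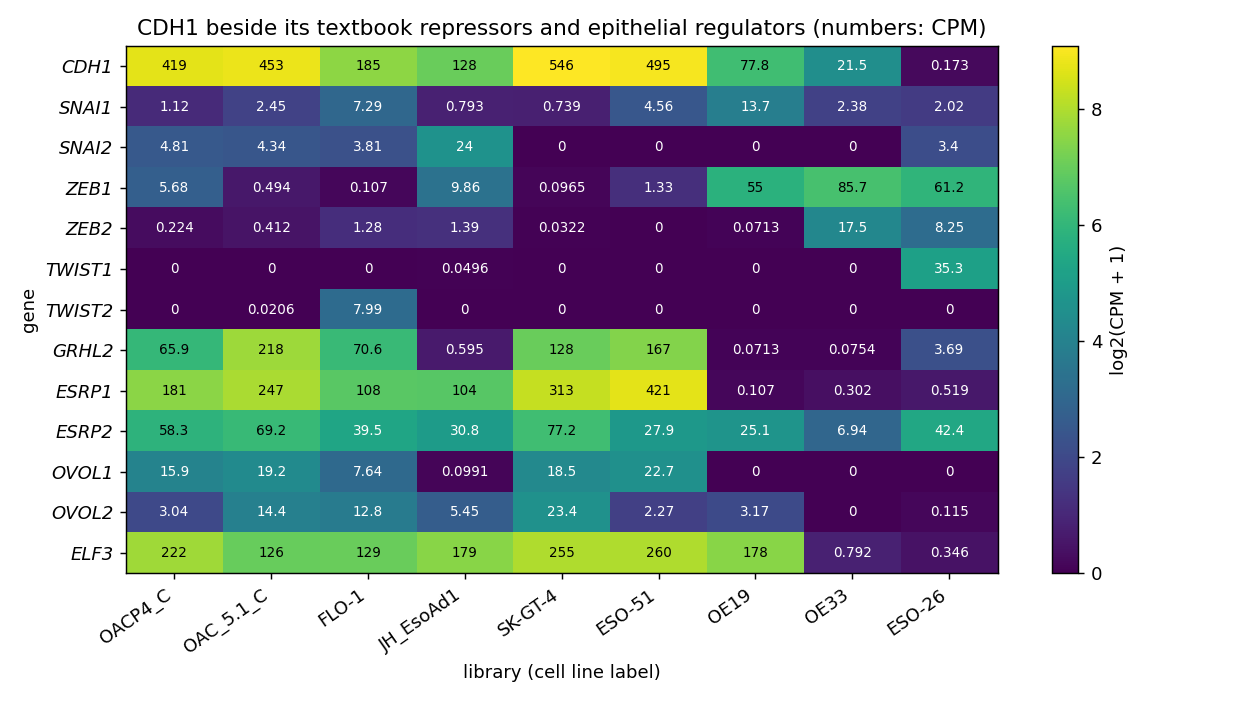
Heat map of CDH1 with 6 of its textbook repressors and 6 epithelial regulators (rows) in the 9 libraries (columns), with the colour giving log2(CPM + 1) and the printed numbers the CPM. ZEB1 is at 55.0 to 85.7 CPM in OE19, ESO-26 and OE33, where CDH1 is 77.8 CPM or lower and ESRP1 at most 0.519 CPM.

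The genes most like a cadherin were sought for the 3 that reached 5 CPM in at least 3 libraries, CDH1, CDH3 and CDH17, among 11379 genes at 10 CPM or more in at least 2 libraries. Likeness is Pearson r of log2(CPM + 1) over the 9 libraries, which share their processing and differ in depth, and is a ranking without a test. For CDH1 these were DTX4, a ubiquitin ligase of the Notch pathway (r = 0.988, Spearman rho 0.967), the unconventional myosin gene MYO5C (0.980, rho 0.883) and the guanylate-binding protein gene GBP3 (0.968, rho 0.833). Without ESO-26 and OE33 the r of DTX4 was 0.984, that of MYO5C 0.867 and that of GBP3 0.748. DTX4 ran from 0.865 CPM (ESO-26) and 12.9 CPM (OE33) to 137 CPM (SK-GT-4) and 138 CPM (ESO-51).

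For CDH3 the most alike were the zinc finger gene HIVEP2 (r = 0.959, rho 0.917), the galectin gene LGALS8 (0.944, rho 0.867) and the integrin gene ITGB8 (0.938, rho 0.967), and without ESO-26 and OE33 these r values stayed between 0.928 and 0.937. Like CDH3, ITGB8 peaked in OAC_5.1_C (750.3 CPM) and was lowest in ESO-26 (2.13 CPM) and SK-GT-4 (4.12 CPM). For CDH17 they were ANKS4B, a scaffold of the intestinal brush border (r = 0.998, rho 0.661), GPA33, the A33 antigen of intestinal epithelium (0.997, rho 0.594), and AC124067.4 (0.991, rho 0.509). The 9 libraries form 2 separate clusters for CDH17, so these r values rest on the 3 high libraries against the 6 low ones.

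Nectins, adhesion molecules that work beside the classical cadherins, gave 1 higher and 6 lower calls in 36 pairs, with 4.1% and 2.79% of pairs over all genes beside them. NECTIN4 was at most 0.0577 CPM in OE19, ESO-26 and OE33, the 3 libraries lowest in CDH1 by CPM, and 14.4 to 63.3 CPM elsewhere. NECTIN3 was 0.178 CPM in OE19 and 1.29 CPM in FLO-1, against at least 16.011 CPM in the others. The genes that process cadherins gave 4 higher and 4 lower calls in 72 pairs, no large excess over those shares. FURIN, which cleaves the cadherin precursor, lay between 68.5 and 147 CPM and ADAM10, which sheds the outer part of CDH1, between 98.8 and 349 CPM, both without a call. TMTC1, of the family that adds mannose to cadherins, gave 6 of the 8 calls, with 113 CPM in FLO-1, 78.9 CPM in JH_EsoAd1, 41.2 CPM in OE19 and 0 counts in OE33.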

How the data were processed

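The 9 libraries are 1 deposited column per cell line. The build GRCh37 and the tools R 3.6.1, STAR 2.6.1d and FastQC 0.11.7 are named in the notes on processing by the submitters, without their roles. The counting program, annotation release and strand setting are not given in the sources used here, so overlapping and antisense genes cannot be told apart. The deposited table holds raw counts per gene, per the file headers and values. Deposited files of each line give the authors' counts, gene length and FPKM, per the file headers, and all 90 cadherin counts were equal in both sources. Of the counts in those files 25.8% (OE19) to 77.3% (JH_EsoAd1) lie outside the table and enter the deposited FPKM. The column OACM5.1_C was taken as OAC_5.1_C. A row without a gene name (at most 0.00965% of counts) was left out.

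Counts were scaled to CPM by TMM (edgeR 4.0.16, R 4.3.3) on 17163 genes, with factors between 0.831 in JH_EsoAd1 and 1.11 in ESO-51. Calls use log2(CPM + 1). Intervals are exact Poisson 95%, ratios have exact conditional intervals, and a count of 0 has a floor of 3 counts. A 4-fold rule against the median of the other 8 libraries, or against the nearest (at 5 CPM or more), replaced tests. Named genes are all 10 members, list genes called in a discussed library (not all are printed), all catenins, repressors and regulators, and the 3 genes most like each member that qualified. List symbols matched for 121 of 123. The members and lists were chosen with earlier results of these data known. Alternatives covered scaling (DESeq2 1.42.0 size factors, library size), pseudocount, threshold, FPKM, gene length and libraries left out. Python 3.11.15 was used.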

Additional observations from a re-analysis of the deposited data

How the results depend on the processing

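No paired analysis was possible because each line has 1 library. With the deposited FPKM there were 6 higher calls in place of 12, of which 5 were kept and 1 (CDH1 in SK-GT-4) was gained. The 7 lost, of CDH2, CDH5, CDH6 and CDH11, lay at 2.84 FPKM or below. With 1 added, the rule cannot call such a level higher, so these losses are no check of the calls. The 5 lower calls became 3 without both OE19 and OE33, an alternative chosen after seeing the data. Gap calls upward went from 3 to 1 with FPKM and to 5 at a 2-fold threshold. The gap call downward went from 1 to 0 with FPKM and without both ESO-26 and OE33. The minimum of 5 was kept for FPKM, and the gaps lost with FPKM could not meet it. CDH1 led 5 libraries instead of 2 without CDH13, CDH16 and CDH17. A pseudocount of 5 took the list calls from 101 to 59 higher and from 70 to 37 lower. Leaving out each library in turn gave 9 to 13 higher and 4 to 6 lower calls, 3 to 4 gaps upward and 0 to 2 downward, and 1 to 2 libraries led by CDH1, 2 to 3 by CDH17, 2 to 3 by CDH3 and 0 to 1 by CDH4. Under the alternatives 115 of these counts stayed within 1.5 times and 14 did not. The cause was not tested, apart from libraries that a setting removes and FPKM values too low for a call. Of 26 ratios between libraries, the deposited FPKM (chosen after seeing the data) moved 4 by over 1.5 times, all with JH_EsoAd1, and turned 2, CDH6 in JH_EsoAd1 over ESO-26 (0.949) and CDH17 in SK-GT-4 over ESO-51 (0.970). The 26 were chosen pairs, and outside them the FPKM turned other orders too. For example, OACP4_C stood above OAC_5.1_C in CDH1 (22.2 against 20.6 FPKM) and above FLO-1 in CDH3 (6.72 against 5.50 FPKM). Depth limits low levels, since 3 counts are 0.173 CPM in ESO-26.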

Other observations

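The desmosomal cadherins and their partners, a separate adhesion system anchored to keratin, were low in the libraries in which CDH1 was lowest. Their 12 genes gave 9 higher and 11 lower calls in 108 pairs, with 4.1% and 2.79% of pairs over all genes beside them. The lower calls fell in ESO-26 (6) and OE33 (5), where 6.3% and 4.17% of all genes were lower. Desmoglein DSG2 was 46.1 CPM (ESO-26) and 2.49 CPM (OE33), against at least 298.5 CPM elsewhere, and desmocollin DSC2 was 8.07 and 1.51 CPM against at least 33.7 CPM. Plakophilin PKP2 was 4.38 and 0.490 CPM. The linker desmoplakin (DSP) was 9.17 CPM in ESO-26 but 507 CPM in OE33, inside the 191 to 566 CPM of the other 7. OE19, with CDH1 below the median of the others and high ZEB1, kept DSG2 at 413 CPM and DSP at 397 CPM. DSG3 and PKP1, known from squamous epithelium, were highest in JH_EsoAd1 (DSG3, 7.19 CPM) and OAC_5.1_C (PKP1, 20.0 CPM).

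Of 18 other cadherins and cadherin-related genes 12 reached 1 CPM, with 11 higher and 0 lower calls in 108 pairs. Over all genes 4.1% of pairs were higher and 2.79% lower. CDHR2 and CDHR5, the protocadherins that tie microvilli of the intestinal brush border together, were called higher only in libraries with high CDH17. CDHR5 was 63.3 CPM (OE19), 42.5 CPM (SK-GT-4) and 14.1 CPM (ESO-51), and at most 3.15 CPM elsewhere. CDHR2 was 568 CPM in OE19, 14.0 CPM in ESO-51 and 3.95 CPM in SK-GT-4, the last without a call. CDH18 was 17.6 CPM in ESO-26 and 8.57 CPM in JH_EsoAd1, the libraries that also held CDH6. FLO-1 held CDH19 at 31.4 CPM and CDH23 at 18.1 CPM, ESO-51 CDH7 at 6.58 CPM, and CDH24 was 6.70 to 31.5 CPM throughout.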
